A study of Salix linearistipularis with 24 samples.

Results

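A set of 150 root genes of the dioecious willow *S. linearistipularis* was present in every female group and listed at 0 in all 12 male libraries. The genes were chosen from the table of FPKM (fragments per kilobase of transcript, divided by the mapped fragments of the library) after the contigs of each cluster had been summed to 1 gene (CL numbers), with single unigenes kept as they were (Unigene numbers). For each gene at 0 in the male libraries, the score was the lowest of the 4 female group means, and the 150 genes with the highest scores of 139844 genes in all were taken. Of these, 138 were single unigenes and 12 were clusters. The choice thus used the levels of female and male roots, and the difference between the sexes is given below as a description, with no test. None of the 150 IDs is paired with a gene name in the sources used here, so the genes are given by their IDs, and no role could be stated for them.

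The study sequenced total RNA from roots of hydroponic cuttings and made 24 libraries. Each sex had 4 groups of 3 libraries, namely a control in water without added NaCl and cuttings that had stood in 100 mM NaCl for times of 6 h, 12 h, or 24 h. The sources used here do not give the hour of the control harvest. Each sex had 1 control group, so an effect of the time in NaCl cannot be told apart from one of the time of day or of the time since handling. According to the labels, cuttings of each sex were propagated from 1 individual, whereas the methods describe trees of both sexes in several populations. If each sex came from 1 individual, a difference between sexes cannot be told apart from a difference between the 2 plants, and the spread between the 3 libraries of a group may be technical. The methods name 3 independent experiments for each condition. The labelled tissue could not be checked against root markers, because the table gives no gene names.

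Willows carry female and male flowers on separate plants, and sex is set by a sex-linked region of the genome. Genes in such a region, genes that are expressed in only 1 sex, and genes that only some plants carry can all be found in libraries of a single sex. In an assembly without a reference genome, alleles and near-identical copies of a gene can be kept as separate unigenes, and a read is then assigned to the copy it matches best. In bulk roots, fewer cells of a type and less RNA per cell cannot be told apart. Sequences of the unigenes were not used here, so whether a gene listed at 0 in male roots had a near-identical copy under another ID was not tested.

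The sum of FPKM lay between 673333 and 778064 in female libraries and between 663314 and 743637 in male libraries. Since FPKM are divided by the mapped fragments, these sums do not show library size. In each of the 4 conditions, every female library had more genes above 0 than every male library. The numbers were 87020 to 87363 against 72956 to 73429 in control roots, 93150 to 93720 against 76093 to 85217 after 6 h, 83802 to 84126 against 82993 to 83774 after 12 h, and 74132 to 75022 against 68613 to 69014 after 24 h. Read numbers were not used here. The smallest value above 0 in a male library was 0.01 FPKM. Some genes stayed out of the set through male 6 h libraries alone. Matching counts for the other male groups were not made. Of the genes that reached the lowest score of the set, 112 were above 0 in male 6 h libraries only, 92 of them in replicate 3, 29 in replicate 2, and 27 in replicate 1, and these genes did not enter the set. The highest male 6 h value of these genes had a median of 0.205 FPKM and reached 11.3 FPKM.

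Most genes of the set had low levels. The score had a median of 1.21 FPKM and ran from 9.21 FPKM to 0.863 FPKM, with 109 genes at or above 1 FPKM, 27 at or above 2 FPKM, and 8 at or above 3 FPKM. Single female libraries ranged up to 84.4 FPKM. Of the 150 genes, 144 were above 0 in all 12 female libraries, and 56 were at or above 1 FPKM in each of them. The other 6 genes were listed at 0 in at most 3 female libraries each, which made up 9 of the 1800 female values.

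The highest score belonged to Unigene69377. Its FPKM was 30.1, 32.4, and 34.9 in female control roots, 8.76, 9.41, and 9.46 after 6 h, 16.55, 15.97, and 14.44 after 12 h, and 13.3, 14.0, and 13.4 after 24 h. The control libraries were all above the NaCl-treated ones, and the 6 h libraries were the lowest. The level of Unigene75238 was 10.6 ± 2.07 FPKM in the female control (SD, n = 3), 15.8 ± 0.900 after 6 h, 11.2 ± 0.831 after 12 h, and 4.71 ± 0.216 after 24 h. Unigene29155 had a different course, with 3.43 ± 0.0889 FPKM in control roots, 15.0 ± 0.520 after 6 h, 4.38 ± 0.747 after 12 h, and 15.0 ± 1.55 after 24 h (SD, n = 3), so that the 6 and 24 h libraries lay above all control and 12 h libraries. In contrast, Unigene78788 ranged from 2.38 to 7.37 FPKM over the 12 female libraries with overlap between groups, except that the 6 h libraries lay above the 24 h libraries. Unigene50225 ranged from 2.85 to 6.09 FPKM and was highest after 12 h. These 5 genes had the highest scores and were listed at 0 in every male library.

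**Figure D1:**
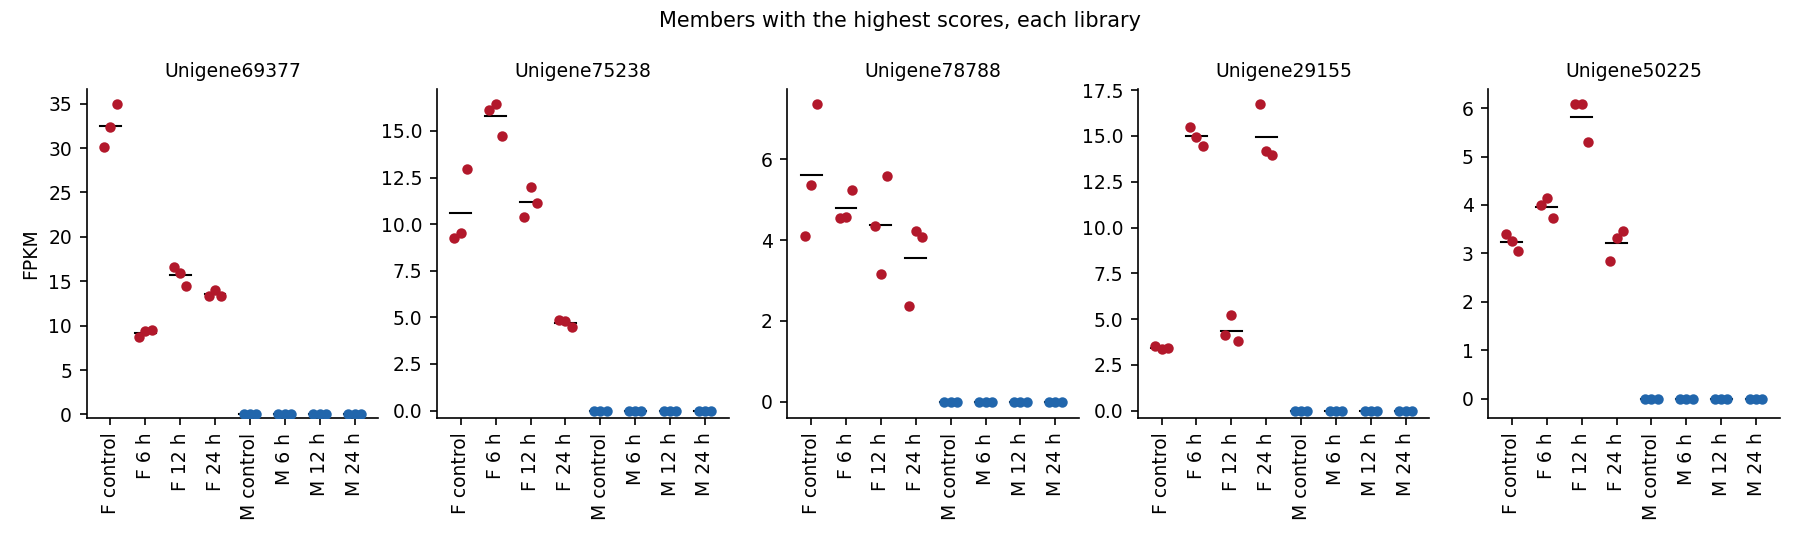
FPKM of the 5 genes with the highest scores (y axis, linear, 1 panel per gene) in each of the 24 libraries, grouped along the x axis by sex (F, M) and time in NaCl. Points are libraries, bars are means of 3 libraries, and all male points lie at 0, whereas the female points of Unigene69377 lie between 8.76 and 34.9 FPKM.

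The scores declined without a gap at the end of the set. The last genes inside were Unigene9307 with a score of 0.867 FPKM and Unigene70397 with 0.863 FPKM. The first genes outside were Unigene33368 with 0.86 FPKM and CL16370 with 0.857 FPKM. Unigene9307 stood at 6.01, 8.54, and 8.74 FPKM in female control roots and at 1.01, 0.660, and 0.930 FPKM after 24 h, so a low score could come with a high level in another group. In all, 15731 genes were above 0 in female libraries alone, of which 2865 had a score above 0.

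Genes restricted to libraries of a single sex were more numerous on the female side at the level of the set. With the sexes exchanged, 10869 genes were above 0 in male libraries alone and 648 of them had a score above 0. Of the 10869, 16 reached the lowest score of the female set, and the 150th had a score of 0.193 FPKM against 0.863 FPKM. The highest male score was 7.31 FPKM, below the 9.21 FPKM of Unigene69377. When the 6 h libraries of both sexes were left out, a choice made after the data were seen, 539 genes were found in females alone and 63 in males alone at that score. These counts were not tested. Female libraries also had more genes above 0 in every condition, and the part of this in the counts was not tested.

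**Figure D2:**
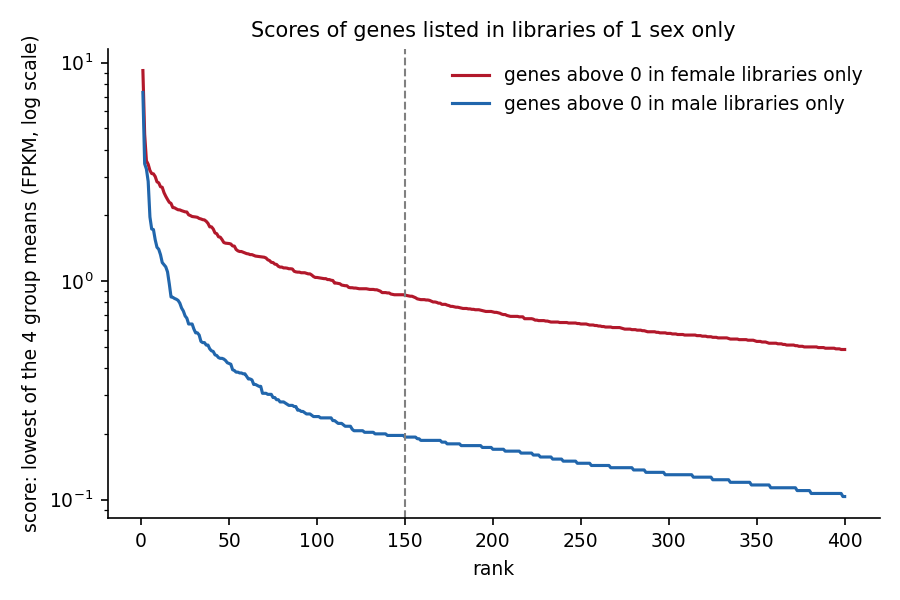
Score (lowest of the 4 group means, FPKM, log axis) against rank for the first 400 genes above 0 in female libraries only (red) and in male libraries only (blue), with a dashed line at rank 150. At that rank the female curve stands at 0.863 FPKM and the male curve at 0.193 FPKM.

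Genes that reached the score in female roots had highest male levels from 0 to over 10 FPKM. The bins used below differ in width, so their counts do not show whether 0 stands apart from low male levels. In total, 23404 genes had a score of at least 0.863 FPKM in female roots, and the 150 genes made up 0.641% of them. The highest male library stood above 0 but at no more than 0.05 FPKM for 15 genes, between 0.05 and 0.1 FPKM for 43, between 0.1 and 0.5 FPKM for 172, and between 0.5 and 1 FPKM for 215. It was over 10 FPKM for 14590 genes, 62.3% of the total. By the number of libraries, 119 genes at this score were above 0 in a single male library, 73 in 2 libraries, and 20111 in all 12. With 0 required in the other 9 male libraries alone, 262 genes reached the score, and the 150 highest of them shared 71 genes with the set.

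**Figure D3:**
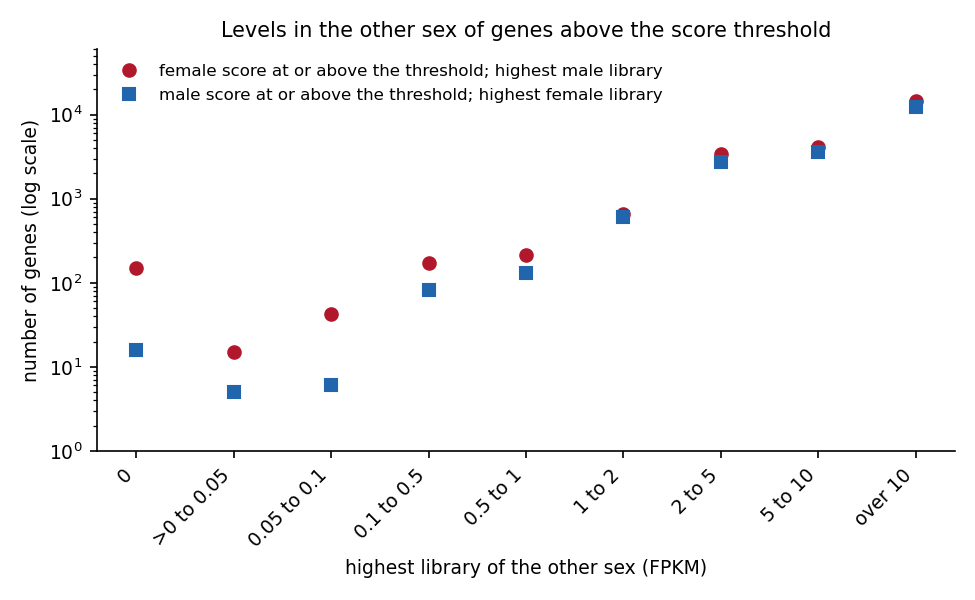
Number of genes (y axis, log scale) by the highest library of the other sex (x axis, FPKM in bins) for genes whose score was at least 0.863 FPKM in female roots (red circles) or in male roots (blue squares). The female points fall from 150 genes at 0 to 15 genes at up to 0.05 FPKM. They then rise to 14590 genes over 10 FPKM, and the male points start at 16 genes. The bins differ in width, so this course does not show a gap above 0.

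Few of the genes above 0 in female libraries alone reached a mean of 1 FPKM in every female group. Of the 15731 genes, 7807 reached a mean of 1 FPKM in exactly 1 female group, 913 in 2 groups, 466 in 3 groups, and 109 in all 4, whereas 6436 reached it in none. The single group was the control for 4257 genes, 6 h for 2656, 12 h for 712, and 24 h for 182. The 109 genes that reached it in all 4 groups were those of the set with a score of at least 1 FPKM. The other 41 genes of the set lay below 1 FPKM in at least 1 group mean.

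The spread between replicate libraries was near that of all genes tested. The coefficient of variation (CV, the SD as a percent of the mean) came to a median of 22.8% in the female control, 21.5% after 6 h, 16.4% after 12 h, and 26.1% after 24 h. For the 23254 genes that reached the lowest score of the set and were also seen in male libraries, the median was between 7.57% and 9.07%. Over all genes tested it was 21.4%, 17.4%, 22.5%, and 25.3% in the same order, with the set lower after 12 h. The 23254 genes had no upper limit of score, and most exceeded 10 FPKM in a male library. They were thus not matched to the set in level, and the depth behind the values differed. Pooled over the 4 groups, the CV of the set had a median of 26.9%, which is the spread of counts of 13.9 fragments if counting was the only source of error, and 59 genes came to fewer than 10 fragments on this scale. In Unigene104454, the 12 female values lay within 8% of 0 to 4 whole multiples of 0.610 FPKM, and the multiples summed to 24. The tolerance was chosen after these values were seen. Its values were 2.57, 0.650, and 0.640 FPKM in control roots, 0, 1.19, and 2.52 after 6 h, 0.610, 2.44, and 0 after 12 h, and 2.39, 0, and 1.71 after 24 h, with no separation of groups. No difference between female groups was found for this gene (limma F test, adjusted p = 0.962). How large a difference could have been detected was not tested.

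The level of the set was highest after 12 h of NaCl treatment. The summed FPKM of the 150 genes was 547, 584, and 563 in control libraries, 523, 516, and 521 after 6 h, 908, 932, and 894 after 12 h, and 341, 327, and 319 after 24 h. These sums were between 0.0473% and 0.137% of the FPKM of a library, and the 4 groups did not overlap. The median gene stood at 2.67 FPKM in control roots, 2.16 after 6 h, 4.39 after 12 h, and 1.58 after 24 h (medians of group means). The highest group mean was after 12 h for 93 genes (62.0%), in control roots for 31, after 6 h for 22, and after 24 h for 4. Over all 71861 genes tested, 12 h was the highest group for 14.5%. Over those that reached the lowest score of the set and were also seen in male libraries, it was so for 14.6%. The lowest group mean was after 24 h for 76 genes, after 6 h for 46, in control roots for 19, and after 12 h for 9. Because the rule took the lowest group mean, it kept each gene at or above 0.863 FPKM in every group, and genes with a mean below that in any group could not enter.

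**Figure D4:**
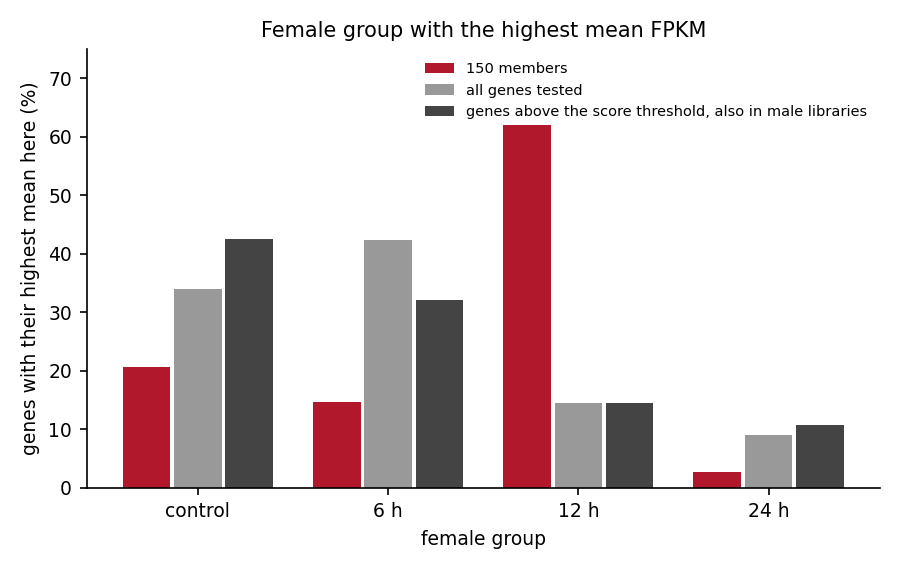
Percent of genes whose highest mean FPKM was in each female group (x axis), for the 150 genes (red) and all 71861 genes tested (grey). Dark grey bars are the 23254 genes that reached the lowest score of the set and were also seen in male libraries. The 12 h group holds 62.0% of the 150 genes and 14.5% of all genes tested.

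The female groups were compared on log2(FPKM + 0.5) with limma in 1 model of the 12 female libraries. Male libraries were left out, since their zeros would make the pooled spread of these genes too small. Genes were called differentially expressed (DEGs) at an adjusted p of at most 0.05 with a log2 ratio of at least 1 in size, over the 71861 genes with at least 1 FPKM in at least 3 female libraries. All 150 genes passed this filter, 41 of them with a group mean below 1 FPKM, and 0 of them depended on their highest group alone to pass. By the F test over the 4 groups, 133 of the 150 genes differed among female groups, compared with 92.7% of all genes tested, so the share of the set (88.7%) was near the background. The comparisons below share libraries and are given side by side. The pseudocount makes ratios of genes with low FPKM smaller than those of the FPKM themselves.

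After 6 h of NaCl treatment, 19 of the 150 genes rose and 32 fell relative to female control roots. Of all genes tested, 35.8% rose and 26.9% fell. Of those that reached the lowest score of the set and were also seen in male libraries, 19.1% rose and 20.5% fell. The median log2 ratio of the set was -0.22, compared with 0.13 for all genes tested. Unigene75963 rose from 2.32, 3.46, and 2.01 FPKM to 30.0, 29.0, and 25.4 FPKM, which was 3.23 on the log2 scale (standard error, SE, 0.29, limma adjusted p = 5.85e-07), and no library of the 2 groups overlapped. Unigene32741 had 0.990 ± 0.0520 FPKM in control roots and 13.1 ± 0.861 FPKM after 6 h (SD, n = 3). This gene reached 1 FPKM in 2 libraries outside the 6 and 12 h groups, so it passed the filter only through groups where it was high, and its ratios are given with no p. In contrast, Unigene75239 fell from 13.4, 15.8, and 15.3 FPKM to 1.03, 0.450, and 1.22 FPKM, or -3.50 on the log2 scale (SE 0.25, limma adjusted p = 7.48e-08). Unigene1897 fell from 14.8 ± 0.597 to 0.953 ± 0.387 FPKM (SD, n = 3). Between the control and 6 h groups, the most abundant contig also differed in 44.7% of all clusters, compared with 22.5% between control and 12 h, and the part of this in the results was not tested.

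After 12 h, 55 of the 150 genes rose and 14 fell relative to control roots, whereas 13.1% of all genes tested rose and 16.8% fell. The percentages of the set were 36.7% and 9.33%, and its median log2 ratio was 0.74, compared with -0.12 for all genes tested. Of the genes that reached the lowest score of the set and were also seen in male libraries, 12.1% rose and 10.2% fell. With the 150 genes chosen without the male 6 h libraries, an alternative added after the data were seen, 46 rose and 7 fell. Unigene32741 had 1.05, 0.960, and 0.960 FPKM in control roots and 8.46, 9.37, and 8.26 FPKM after 12 h, a log2 ratio of 2.62. Unigene57042 rose from 1.34, 2.66, and 0.790 FPKM to 10.6, 12.6, and 8.98 FPKM (log2 ratio 2.51, SE 0.29, limma adjusted p = 1.24e-05). The largest fall was that of Unigene32356, from 15.0, 17.2, and 14.7 FPKM to 1.11, 1.19, and 0.850 FPKM, with a log2 ratio of -3.38 (SE 0.13, limma adjusted p = 7.12e-10). Unigene38660 fell from 7.46 ± 0.751 to 1.36 ± 0.0231 FPKM (SD, n = 3). Unigene69377, the gene with the highest score, was a DEG with a log2 ratio of -1.03 after 12 h (SE 0.07, limma adjusted p = 8.22e-08). That call was lost, at ratios of -0.97 and -0.97, when control replicate 3 or 12 h replicate 3 was left out, and at -0.92 with libraries scaled by the median of ratios.

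After 24 h, 4 of the 150 genes rose and 42 fell, compared with 10.9% and 30.0% of all genes tested. Of those that reached the lowest score of the set and were also seen in male libraries, 11.8% rose and 26.8% fell. The median log2 ratio of the set was -0.52, near the -0.50 of all genes tested. This comparison depended on scaling. When libraries were scaled by the median of ratios, the median of all genes moved from -0.50 to -0.19, that of the set to -0.10, and 10 genes of the set rose and 15 fell. The rising share of all DEGs went from 26.6% to 42.3%. Unigene29155 had the largest rise, from 3.53, 3.36, and 3.40 FPKM to 16.7, 14.2, and 13.9 FPKM (log2 ratio 1.97, SE 0.10, limma adjusted p = 8.36e-09). Unigene18714 rose from 1.38 ± 0.659 to 4.73 ± 0.831 FPKM (SD, n = 3). Unigene2524 had the largest fall, from 18.6, 25.1, and 17.8 FPKM to 0.53, 1.83, and 0.5 FPKM, with a log2 ratio of -3.95 (SE 0.33, limma adjusted p = 5.37e-07). Unigene1897 fell from 14.8 ± 0.597 to 1.153 ± 0.185 FPKM (SD, n = 3).

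**Figure D5:**
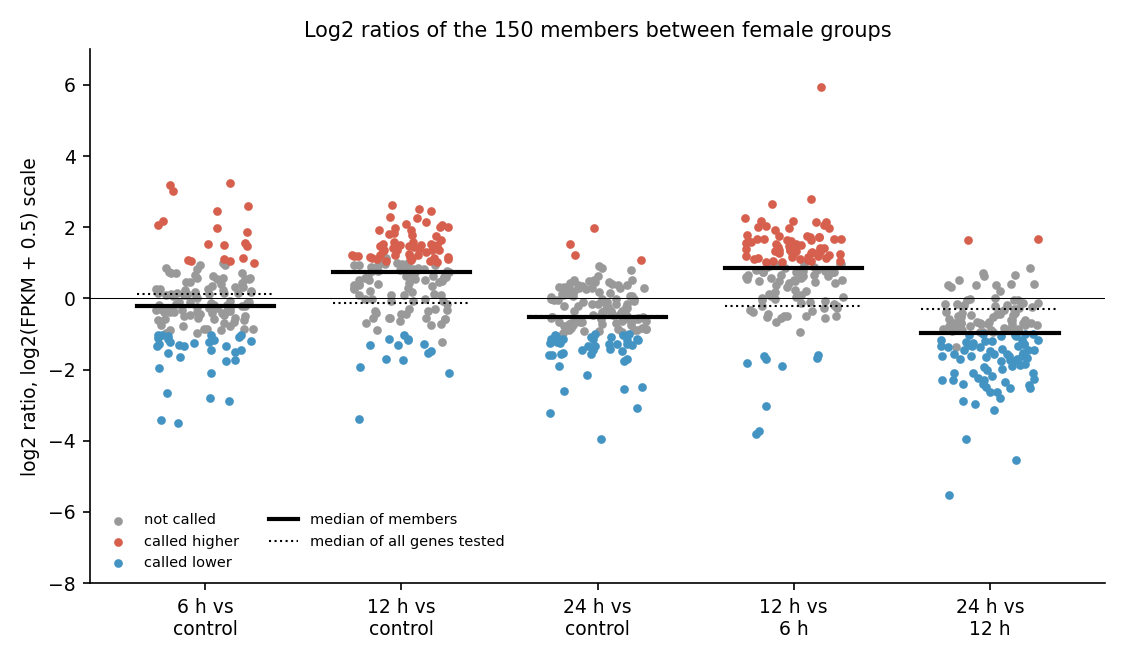
Log2 ratios of the 150 genes (y axis, log2(FPKM + 0.5) scale) in the 5 comparisons of female groups (x axis). Each point is a gene, coloured when it was a DEG, thick lines are the medians of the 150 genes and dotted lines the medians of all 71861 genes tested, and the median of the set lies at 0.74 in the comparison of 12 h with control and at -0.97 in that of 24 h with 12 h.

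From 6 to 12 h, 66 of the 150 genes rose and 9 fell, compared with 17.7% and 32.7% of all genes tested. Of those that reached the lowest score of the set and were also seen in male libraries, 14.8% rose and 16.4% fell. The median log2 ratio of the set was 0.86, compared with -0.22 for all genes tested. The largest rise was that of Unigene75239, from 1.03, 0.450, and 1.22 FPKM to 82.1, 84.4, and 82.4 FPKM (log2 ratio 5.94, SE 0.25, limma adjusted p = 1.07e-09), the highest level of any gene of the set. Unigene69293 rose from 1.19 ± 0.992 to 10.1 ± 0.302 FPKM (SD, n = 3). Unigene75963 fell from 30.0, 29.0, and 25.4 FPKM to 2.18, 1.91, and 0.790 FPKM (log2 ratio -3.82, SE 0.29, limma adjusted p = 1.73e-07), so that its high level was restricted to the 6 h libraries. Unigene44646 fell from 21.2 ± 2.10 to 1.27 ± 0.896 FPKM (SD, n = 3).

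From 12 to 24 h, 2 of the 150 genes rose and 73 fell, compared with 3.29% and 13.5% of all genes tested. Of those that reached the lowest score of the set and were also seen in male libraries, 2.89% rose and 8.52% fell. The median log2 ratio of the set was -0.97, compared with -0.29 for all genes tested. With libraries scaled by the median of ratios, these medians were -0.61 and -0.04, and 6 genes of the set rose and 53 fell, while the rising share of all DEGs went from 19.6% to 41.8%. The 2 genes that rose were Unigene29155, which returned to its level after 6 h, and Unigene32356, which went from 1.05 ± 0.178 to 4.30 ± 0.382 FPKM (SD, n = 3). Unigene75239 fell from 83.0 ± 1.26 to 1.38 ± 0.645 FPKM (SD, n = 3), a log2 ratio of -5.53 (SE 0.25, limma adjusted p = 1.07e-08). The cluster CL1000 fell from 54.3, 62.1, and 63.5 FPKM to 2.24, 1.94, and 2.13 FPKM, after 12.1, 16.5, and 16.1 FPKM in control roots.

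The range of the 4 female group means differed widely among genes of the set. On the log2(FPKM + 0.5) scale, it was 5.90 for Unigene75239 and 4.54 for CL1000, and it was 0.300 for Unigene104454 and 0.425 for Unigene57917. Unigene57917 stood between 0.540 and 1.70 FPKM in all 12 female libraries, with overlap between the control, 6 h, and 24 h groups. Unigene75238 and Unigene75239 were the only genes of the set with consecutive numbers, and the first was highest after 6 h, where the second was lowest. Whether consecutive numbers mark related sequences was not tested.

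The set held a lower share of clusters than all genes and than the genes that reached its lowest score. Clusters made up 8% of the set, 14.8% of all genes, and 51.9% of the 23404 genes that reached that score. By the rule, a cluster entered only if all its contigs were at 0 in every male library. The rule thus worked against clusters, and their low share is not shown to be a trait of the set. CL15492 had 3 contigs, 9 clusters had 2, and CL9797 and CL413 had 1. In CL18081, contig 1 led in every female library, with 6.86, 8.20, and 7.51 FPKM in control roots against 5.88, 5.14, and 4.48 FPKM for contig 2. Summed, this cluster stood at 12.7 ± 0.676 FPKM in control roots and fell to 4.04 ± 0.453 FPKM after 6 h and 3.10 ± 0.762 FPKM after 24 h (SD, n = 3). In CL15492, contig 1 had 4.27, 6.28, and 6.04 FPKM after 12 h and 1.73, 0.73, and 0 FPKM after 24 h. The fall of its sum from control to 24 h (log2 ratio -1.43, SE 0.38, limma adjusted p = 0.00566) was no longer called without 24 h replicate 3 (-0.97) or after scaling by the median of ratios (-0.99). In CL1000, contig 1 carried nearly the whole level (54.0, 60.8, and 60.8 FPKM after 12 h), and contig 2 stood at 0.270, 1.33, and 2.64 FPKM. The most abundant contig differed between control and 6 h in 4 of the 10 clusters with more than 1 contig, between 6 and 12 h in 5 of 10, between control and 12 h in 1 of 10, and between 12 and 24 h in 0 of 10. Over all clusters, the corresponding shares were 44.7%, 44.8%, 22.5%, and 20.6%. Single rows behaved differently from sums. When every row was taken by itself, 69 of the 150 rows with the highest scores were contigs of a cluster, and for 61 of these another contig of the same cluster was above 0 in a male library. The rows of the set shared 89 of these 150.

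The ID numbers of the set were not spread evenly. Of its 138 single unigenes, 103 (74.6%) had numbers of at least 30000 and under 80000, a band chosen after the numbers were seen. The share was 41.8% of all 119091 single unigenes and 36.1% of all those found in female libraries alone. It was 51.6% of those that reached the lowest score of the set and were also seen in male libraries. No number of the set was above 104454, whereas numbers in the table went up to 120887. The sources used here do not say how the assembly assigned numbers.

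No gene of the set was among those that the study annotated in its lists of salt-responsive and reactive oxygen species genes. All 157 listed genes were in the table, and 0 were members of the set or at 0 in all male libraries. The set made up 150 of 139844 genes and 0.641% of those that reached its lowest score, as 77 listed genes did. A count of 0 members is thus near the share over all genes and is no result about the set. Over all genes, 15731 were above 0 in female libraries alone. The salt-responsive genes were chosen by the study as DEGs of both sexes in these libraries, so a gene at 0 in all male libraries could not be among them, and for that list the rule fixed the count. Of the 157, 20 had no FPKM above 0 in the 3 male control libraries and 18 had none in the 3 female ones. Of the listed genes that reached the lowest score of the set, Unigene20277 had the lowest male level. It is a cytosolic ascorbate peroxidase gene, whose enzyme removes hydrogen peroxide. It stood at 1.51, 1.72, and 1.42 FPKM in female control roots and at 0.08, 0.17, and 0.22 FPKM in male control roots, and its highest male value was 1.78 FPKM in a 6 h library. Unigene13808, another cytosolic ascorbate peroxidase gene, was listed at 0 in all 12 female libraries. In male roots it stood at 0, 1.57, and 0 FPKM after 6 h and at 1.74, 3.65, and 3.17 FPKM after 24 h. It was at 0 in all male control and 12 h libraries, so it was not seen in every male group. Unigene20277 and Unigene13808 were chosen after their values were seen.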

How the data were processed

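Root RNA of 24 samples was sequenced. The authors made a Trinity assembly with clustered contigs and deposited its FPKM (the methods name RPKM) in 253209 rows. The sources used here name no aligner or quantifier. Columns were assigned to samples by their names, and no column was left unmapped. Contigs of a cluster were summed, which gave 139844 genes. Values were not scaled further. Female groups were compared with limma 3.58.1 (lmFit, contrasts.fit, eBayes with trend) in R 4.3.3 on log2(FPKM + 0.5), 1 mean per group, with Benjamini-Hochberg adjustment over the 71861 genes with at least 1 FPKM in at least 3 of the 12 female libraries. The test was tried on simulated data. Other calculations used data.table (version 1.17.8), Python 3.11.15, numpy 2.4.6, pandas 2.3.3, and matplotlib 3.10.9.

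Genes were named by a rule: the 5 highest scores, the 2 last inside and 2 first outside, the 2 largest rises and falls of each comparison, the smallest and largest ranges, the clusters with most contigs, and annotated genes at 0 in male roots. The genes, lists, and tests were chosen with earlier results of these data known. Alternatives were other pseudocounts, no filter, median-of-ratios scaling, an FDR of 0.01, all 24 libraries, the replicate number as a block, each library left out, rows not summed, and altered rules. Same-numbered libraries did not deviate together, so no block was used.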

Additional observations from a re-analysis of the deposited data

Results flagged for a closer look

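In 10 genes of the set, the log2 ratio to control was called in opposite directions at successive times. The calls and limma's test of the difference, from the same fit, were used to select these genes, so that test adds no support. How many of all genes tested did the same was not counted, so this is not shown to be a trait of the set. The differences below are of log2 ratios to control, the later time minus the earlier one, and no explanation for them was tested. Between 6 and 12 h, the difference was 5.94 for Unigene75239 (from -3.50 to 2.45), 2.80 for Unigene69293 (from -1.32 to 1.47), and 2.14 for Unigene2192 (from -1.08 to 1.06). It was -3.72 for Unigene44646 (from 2.59 to -1.13), whose lower call at 12 h was lost without control replicate 1 (-0.76), without 12 h replicate 1 (-0.88), without 12 h replicate 2 (adjusted p = 0.0529 from limma), with a pseudocount of 1 (-0.93), and at an FDR of 0.01 (adjusted p = 0.0146 from limma). Between 12 and 24 h, the difference was -5.53 for Unigene75239, -4.54 for CL1000, -3.13 for CL16511, -2.95 for Unigene73731, -2.87 for Unigene69018, -2.79 for Unigene43255, and -2.52 for Unigene50456, all higher at 12 h and lower at 24 h than in control roots. With libraries scaled by the median of ratios, the opposite calls held for 4 of 4 genes between 6 and 12 h and for 4 of 7 between 12 and 24 h. They were lost for CL16511, Unigene69018, and Unigene50456, whose ratios at 24 h were then -0.68, -0.99, and -0.72.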

How the results depend on the processing

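No called ratio of a named gene changed sign under any alternative. Counts were only marked as moved or not, so they could not be marked as reversed. At 24 h against control, the median of the set was -0.52 against -0.50 for all genes tested. With libraries scaled by the median of ratios it was above that of all genes, -0.10 against -0.19. For the counts of DEGs at 24 h against control, scaling by the median of ratios gave 10 higher and 15 lower genes, and a pseudocount of 1 gave 2 higher ones. From 12 to 24 h, scaling gave 6 higher genes. With the 150 genes at 0 in the 9 male libraries other than 6 h, an alternative chosen after the data were seen, 7 genes were lower at 12 h against control and 4 from 6 to 12 h, while 46 and 50 were higher. The altered rules shared 71 genes with the set (9 male libraries), 72 (0 in at least 11 of 12 male libraries), and 89 (single rows), and 262, 269, and, with the lowest of the 12 female libraries as the score, 65 genes reached 0.863 FPKM. Without the 6 h libraries of both sexes, chosen after the data were seen, these were 539 in females alone and 63 in males alone. With at least 10 FPKM in both groups, 1 cluster was left, and its leading contig differed in 0 comparisons (none was left for the comparisons with 24 h). Of 2185 ratios of named genes under alternatives, 28 lost their call and 5 gained it, 11 of these under scaling. Leaving out each female library moved no count of DEGs by over 1.5 times, with 51 to 59 higher genes at 12 h against control. Same-numbered libraries had correlations of deviations between -0.012 and 0.005 in 18 pairs. These values do not show whether a shared number marks a shared experiment. With the replicate block, the counts against control were 19 and 32, 55 and 14, and 4 and 42. Read numbers were not used, so the depth behind single genes is unknown.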
